A study of Homo sapiens with 9 samples.

Results

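The 10 genes described here, DUSP4, DUSP5, DUSP6, SPRY2, SPRY4, SPRED1, SPRED2, ERRFI1, LRIG1 and PHLDA1, are transcriptional targets and feedback inhibitors of the epidermal growth factor receptor (EGFR) and of the kinase ERK. They were chosen by gene symbol, all 10 were found among the 42717 genes of the deposited count table, and all 10 passed the expression filter in each comparison. RNA was sequenced from 3 sublines of the human pancreatic ductal adenocarcinoma cell line SUIT-2, namely S2-007, S2-028 and S2-020, as 3 libraries per line and 9 in all. The labels name no treatment and no engineered allele, and all cells were grown in DMEM with 10% inactivated fetal bovine serum. The study set S2-007, with maspin in the nucleus and the cytoplasm, against S2-028, where maspin is mainly cytoplasmic, and in S2-020 the protein was only weakly detected. Each group is a single subline, and the labels do not say whether its libraries came from separate cultures, so the p-values measure only the spread between these libraries, which may be technical.

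When a ligand binds EGFR, the signal passes through RAS, RAF and MEK to ERK, which enters the nucleus and switches on genes. Some of those genes encode proteins that act back on the cascade, so their mRNA is widely read as an output of ERK and as the strength of its brakes. The DUSP phosphatases remove phosphate from ERK, the SPRY and SPRED proteins act between the receptor and RAF, and ERRFI1 and LRIG1 act on the receptor itself. The activity of ERK was not measured in these files.

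The total count was between 60328748 and 86253923 per library, and the median was 72534872 for S2-007, 75685674 for S2-020 and 61237397 for S2-028. By gene counts, the closest library to each of the 9 came from its own line. Levels are given as TMM-normalized CPM, the count of a gene as a share of its library's total, with a scaling factor that makes libraries comparable. SERPINB5, the gene of maspin, was at 212 ± 9.10 CPM (SD, n = 3) in S2-007, 6.55 ± 0.428 in S2-020 and 27.7 ± 2.75 in S2-028. The markers of ductal epithelium (7 keratin, adhesion and mucin genes) summed to between 9564 and 10093 CPM in S2-007, 4314 and 5431 in S2-020 and 15177 and 17780.2 in S2-028. Most of this sum was KRT8 and KRT18, at 8447 and 4839 CPM in S2-028. Of the 7 genes, 4 were called higher and 1 lower in S2-028 than in S2-007, 0 higher and 6 lower in S2-020 than in S2-007, and all 7 higher in S2-028 than in S2-020. MUC1 was the gene called lower in S2-028 than in S2-007, at -0.61 on the log2 scale. The leukocyte markers summed to between 337 and 411 CPM in S2-007 and to at most 14.6 in the other lines. LYZ made up 332 CPM of the S2-007 sum and CD68 41.0 CPM, against 7.83 CPM of CD68 in S2-020 and 10.4 in S2-028, and both genes were called lower in these lines than in S2-007. PTPRC, which defines leukocytes, had a mean of at most 0.301 CPM in any line, and CD3E of at most 0.332 CPM. CD3E went the other way from LYZ and CD68. It was called higher in S2-028 than in S2-007, at 7.51 on the log2 scale, from 0 CPM in S2-007. The 5 acinar markers summed to at most 1.43 CPM, the 5 stromal ones to at most 5.34 and the 4 endothelial ones to at most 10.01 CPM in any library. The 5 proliferation markers summed to between 2010 and 2133 CPM in S2-007, 2189 and 2385 in S2-020 and 2366 and 2443 in S2-028. Of these 5, only MCM2 was called, higher in S2-020 and S2-028 than in S2-007 at 0.67 and 0.99. The part of these differences in the results below was not tested.

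The lines differed in which of the 10 genes were high, and no line was high in all of them. A gene was called changed at a Benjamini-Hochberg adjusted p under 0.05 in edgeR's quasi-likelihood test, taken over all genes tested, and a change of at least 1.5-fold, which is 0.585 on the log2 scale. Between S2-028 and S2-007, 3 of the 10 genes were called, all of them higher in S2-028 (ERRFI1, LRIG1 and PHLDA1), and 18.4% of all genes tested were called, 10.2% higher and 8.19% lower in S2-028. Between S2-020 and S2-007, 4 of the 10 were called, SPRY2 and LRIG1 higher and DUSP5 and SPRED2 lower in S2-020, and 21.6% of all genes were, 9.57% higher and 12.1% lower. Between S2-028 and S2-020, 4 of the 10 were called, DUSP5 and PHLDA1 higher and SPRY2 and LRIG1 lower in S2-028, and 22.2% of all genes were, 12.1% higher and 10.1% lower.

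Smaller differences were common, both among the 10 genes and in the whole table. For S2-028 against S2-007, 7 of the 10 genes had an adjusted p under 0.05 in edgeR's test at any fold change, as did 33.9% of all genes, and 6 of the 10 had no overlap between the libraries of both lines, as had 43.3% of all. For S2-020 against S2-007 these counts were 8 (all genes 40.2%) and 8 (all genes 48.5%). For S2-028 against S2-020 they were 8 (all genes 40.4%) and 7 (all genes 48.9%). The median log2 fold changes of the 10 genes were 0.29, 0.10 and 0.14 in this order of comparisons, beside 0.002, -0.05 and 0.02 over all genes. The shares are not matched for depth. All of the 10 genes but LRIG1 had at least 1188 reads in every library, whereas the genes tested include many with far fewer. The 3 comparisons share libraries in pairs and are therefore not independent of each other.

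**Figure D1:**
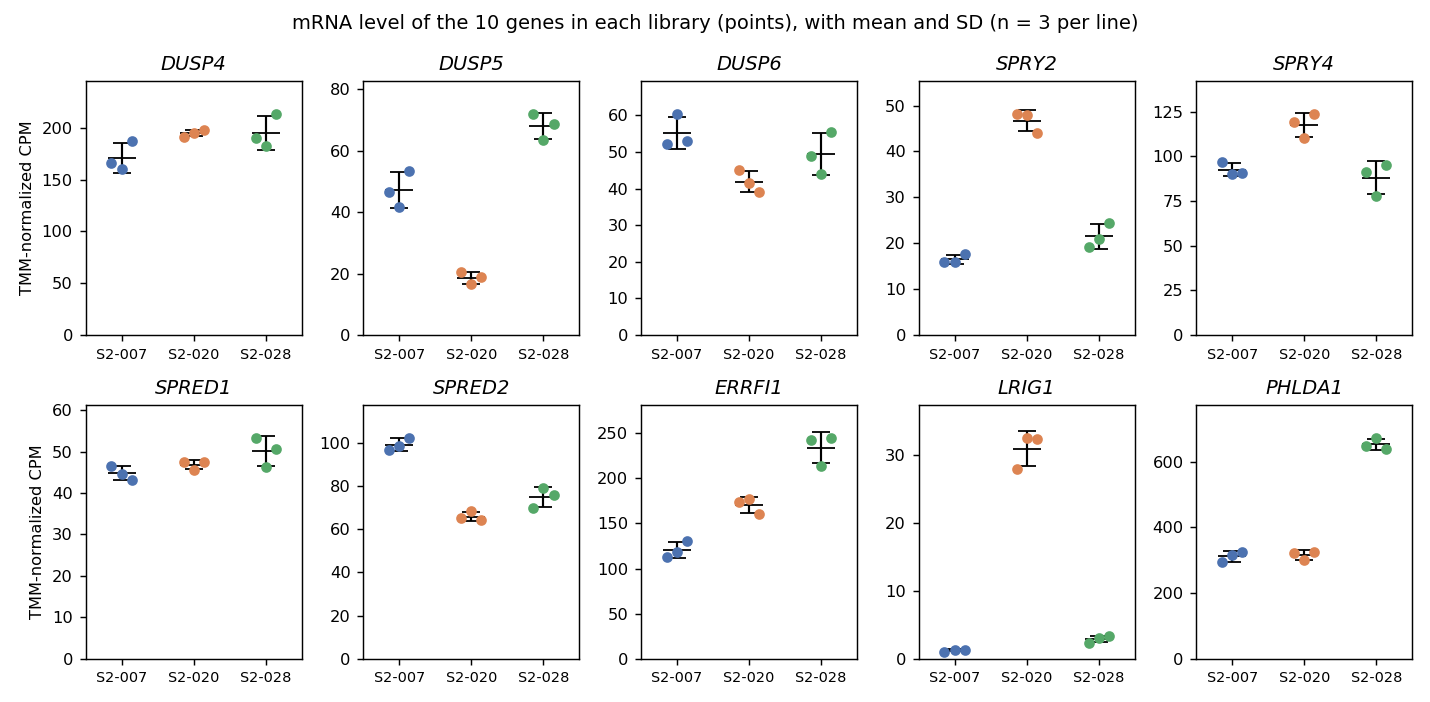
The level of each of the 10 genes in TMM-normalized CPM (vertical axes from 0) is plotted for the 3 libraries of each line (points), with the mean and SD of each line (bars). LRIG1 and SPRY2 stand highest in S2-020, PHLDA1 and ERRFI1 in S2-028, and DUSP5 is lowest in S2-020.

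Of the 10 genes, 6 were called in at least 1 comparison. The other 4, DUSP4, DUSP6, SPRY4 and SPRED1, were called in none, and their log2 fold changes lay between -0.43 and 0.32 over the 3 comparisons. All of their 95% intervals lay between -0.58 and 0.44, so a 1.5-fold difference was outside the intervals of these 4 genes. Among the 10 genes, 2 had their highest mean in S2-007, 3 in S2-020 and 5 in S2-028. The lowest mean was in S2-007 for 6 genes, in S2-020 for 3 and in S2-028 for 1. These ranks take the means as they are, and several rest on lines whose libraries overlapped. DUSP4 was at 195.01 CPM in S2-028 and 194.9 in S2-020, and PHLDA1 at 312 in S2-007 and 316 in S2-020. SPRED1 was counted as highest in S2-028 and SPRY4 as lowest there, also with overlap. The same counts over all genes were not taken. The libraries of a line were close for these genes, with a coefficient of variation between 1.66% and 16.4% and a median of 6.65%. Counts behind the values were between 1188 and 42941 reads per library for 9 of the genes, and LRIG1 alone went down to 80 reads.

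**Figure D2:**
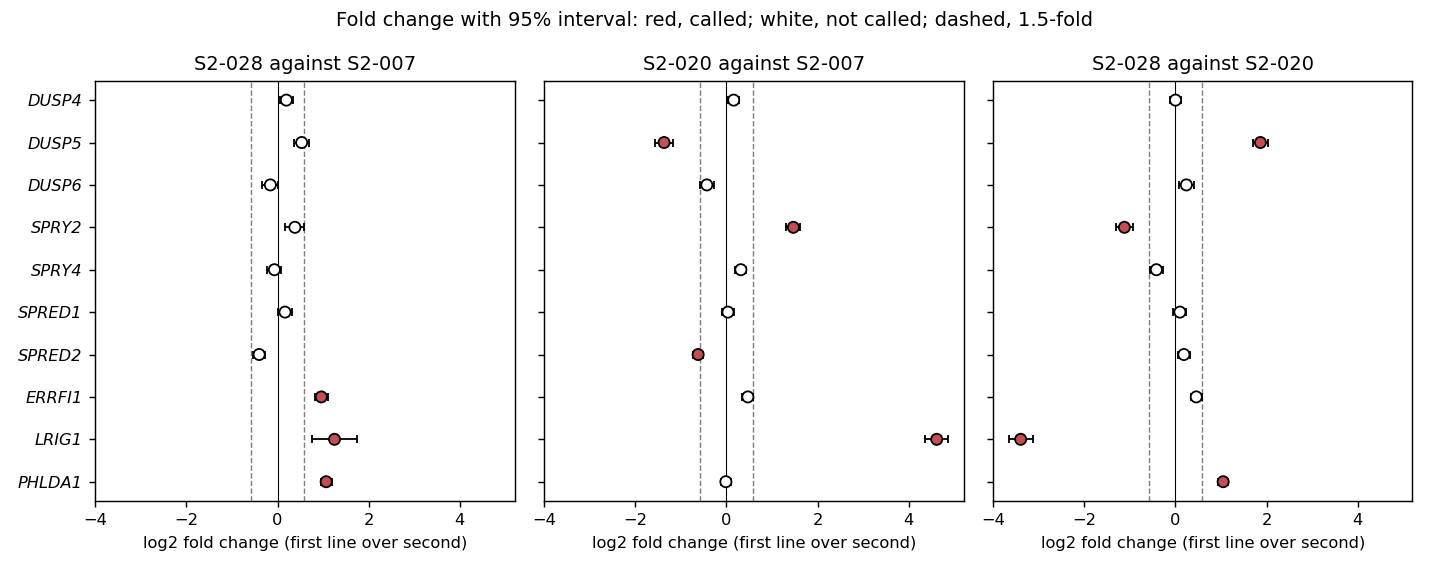
The log2 fold change of each gene (horizontal axis, first line over second) with its 95% interval is plotted for the 3 comparisons, with dashed lines at 1.5-fold. Red points were called and white points were not, and the change of LRIG1 in S2-020, at 4.61, lies far outside the others.

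The promoters of 3 of the genes are shown, SPRY2 and LRIG1, which were highest in S2-020, and PHLDA1, which was highest in S2-028. SPRY4 was also highest in S2-020 and ERRFI1 in S2-028, and their promoters are not printed. The promoter table used here, from RefSeq (GRCh38.p14), gave start sites for 8 of the genes. It held no entry for DUSP4 and DUSP5, whose RefSeq positions are given below. The 250 bases before the most upstream start site listed for each gene were searched on both strands for CCGGAA. This is a core of the sites of ETS factors, which ERK phosphorylates. The sequences are written on the strand of the gene, 5′ to 3′, with matches in capitals (TTCCGG is the same motif on the other strand).
SPRY2 (chr13:80341127-80341376, minus strand): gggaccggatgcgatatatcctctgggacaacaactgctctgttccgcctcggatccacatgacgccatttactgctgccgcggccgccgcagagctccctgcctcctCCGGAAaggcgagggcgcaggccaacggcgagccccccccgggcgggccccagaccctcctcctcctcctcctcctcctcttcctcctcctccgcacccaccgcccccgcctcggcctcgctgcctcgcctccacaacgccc
LRIG1 (chr3:66501122-66501371, minus strand): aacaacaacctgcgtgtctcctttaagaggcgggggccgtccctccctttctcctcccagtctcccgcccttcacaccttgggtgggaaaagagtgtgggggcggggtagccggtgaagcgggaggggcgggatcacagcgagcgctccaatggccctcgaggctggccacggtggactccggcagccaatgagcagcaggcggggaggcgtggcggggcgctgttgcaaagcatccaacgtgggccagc
PHLDA1 (chr12:76031777-76032026, minus strand): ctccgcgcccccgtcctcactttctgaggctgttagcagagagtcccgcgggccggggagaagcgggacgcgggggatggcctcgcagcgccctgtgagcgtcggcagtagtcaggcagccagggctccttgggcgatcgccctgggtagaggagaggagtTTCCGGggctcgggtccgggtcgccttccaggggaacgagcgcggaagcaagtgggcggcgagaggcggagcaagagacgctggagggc
The window of SPRY4, the only one the table lists for it, lies inside the span given below for that gene. The match begins 142 bases before the start site in SPRY2 and 89 bases before it in PHLDA1, and the LRIG1 window has none. Of the 8 windows, 2 held the motif, both among the 3 printed, as did 14.5% of the 35116 windows of this length in the table. That share counts every window listed, of which there were 14 for these 8 genes, whereas 1 per gene was searched here. The AP-1 motif TGANTCA, where N is any base, was in none of the 8 and in 6.57% of all windows. The CRE motif TGACGTCA was in none of the 8 and in 1.65% of all, and the SRF CArG box was likewise in none and in 1.16%. These matches describe the letters in the windows only.

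The MAPK phosphatases DUSP4, DUSP5 and DUSP6 did not move together. DUSP5 (NCBI gene 1847, chromosome 10, 110497907 to 110511533 of GRCh38.p14), a nuclear phosphatase of ERK, was at 46.7, 41.7 and 53.4 CPM in the S2-007 libraries, 20.4, 16.6 and 19.1 in S2-020 and 71.9, 63.4 and 68.8 in S2-028. The 3 lines did not overlap, with S2-028 highest and S2-020 lowest. The log2 fold change was -1.37 in S2-020 against S2-007 (standard error 0.0905, edgeR adjusted p = 1.53e-10) and 1.87 in S2-028 against S2-020 (standard error 0.0827, edgeR adjusted p = 5.60e-13). In S2-028 against S2-007 it was 0.53 (standard error 0.0800, edgeR adjusted p = 1.58e-05), under the 1.5-fold threshold, and it passed that threshold, at 0.61, without replicate 3 of S2-007.

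DUSP6 (NCBI gene 1848, chromosome 12, 89347235 to 89352501), the cytoplasmic phosphatase that is specific for ERK, was at 52.2, 60.3 and 53.0 CPM in S2-007, 44.9, 41.4 and 39.2 in S2-020 and 48.8, 43.95 and 55.4 in S2-028. S2-020 lay below S2-007 in every library, and S2-028 overlapped both. The fold changes stayed under the threshold, with log2 values of -0.43 in S2-020 against S2-007 (edgeR adjusted p = 5.39e-05), 0.24 in S2-028 against S2-020 (edgeR adjusted p = 0.0244, up to 0.157 with a library left out) and -0.16 in S2-028 against S2-007 (95% interval -0.33 to 0.02, edgeR adjusted p = 0.173). An annotated antisense gene covers 28.6% of the exon bases of DUSP6, and whether the counting used strand is not given in the sources used here.

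DUSP4 (NCBI gene 1846, chromosome 8, 29333064 to 29350684), a further nuclear phosphatase of ERK and other MAP kinases, was at 166, 160.1 and 187 CPM in S2-007, 191, 195 and 198 in S2-020 and 189.7, 182 and 213 in S2-028. The highest S2-007 library lay just under the lowest S2-020 library and within the range of S2-028. DUSP4 differed by 0.16 on the log2 scale in S2-020 against S2-007 (edgeR adjusted p = 0.0283) and by 0.19 in S2-028 against S2-007 (edgeR adjusted p = 0.0345), both under the fold threshold. Under other normalizations, filters and tests and with a library left out, these adjusted p reached 0.211 and 0.224, past 0.05 in 6 of 14 alternatives each. Between S2-028 and S2-020 the difference was 0.002 with a 95% interval from -0.12 to 0.12.

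Of the SPRY genes, which encode inhibitors acting between receptor tyrosine kinases and RAF, SPRY2 separated S2-020 from both other lines. SPRY2 (NCBI gene 10253, chromosome 13, 80335976 to 80341126) was at 15.99, 15.998 and 17.6 CPM in S2-007, 48.1, 48.0 and 43.99 in S2-020 and 19.1, 21.0 and 24.3 in S2-028. Every S2-020 library was above every other library. The gene was 2.77-fold higher in S2-020 than in S2-007 (log2 fold change 1.47, standard error 0.0727, edgeR adjusted p = 1.73e-12). It was 2.17-fold lower in S2-028 than in S2-020 (log2 fold change -1.12, standard error 0.0868, edgeR adjusted p = 2.47e-09). S2-028 was above S2-007 in every library too, but by 0.38 on the log2 scale (standard error 0.100, edgeR adjusted p = 0.00474), which is under the threshold.

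SPRY4 (NCBI gene 81848, chromosome 5, 142310430 to 142325021) had the same line on top by a smaller margin. It was at 96.7, 89.98 and 90.8 CPM in S2-007, 119, 110.5 and 124 in S2-020 and 90.96, 77.7 and 95.4 in S2-028. The S2-020 libraries were above all others, and those of S2-007 and S2-028 overlapped. The log2 fold change was 0.32 in S2-020 against S2-007 (standard error 0.0583, edgeR adjusted p = 1.62e-04) and -0.42 in S2-028 against S2-020 (standard error 0.0703, edgeR adjusted p = 6.34e-05), neither of which reached 1.5-fold. S2-028 and S2-007 differed by -0.07, with a 95% interval from -0.22 to 0.09.

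The SPRED genes encode inhibitors that bring the RAS-inactivating protein neurofibromin to the membrane. Here SPRED2 stood highest in S2-007, whereas no line stood apart for SPRED1. SPRED2 (NCBI gene 200734, chromosome 2, 65307175 to 65432599) was at 96.8, 98.5 and 102 CPM in S2-007, 65.0, 68.4 and 64.2 in S2-020 and 69.7, 78.9 and 75.97 in S2-028. S2-007 was above both other lines in every library, and S2-028 was above S2-020. The log2 fold change was -0.62 in S2-020 against S2-007 (standard error 0.0540, edgeR adjusted p = 9.37e-09), close to the threshold, and without replicate 3 of S2-007 it was -0.58 and no longer called. In S2-028 against S2-007 it was -0.40 (standard error 0.0624, edgeR adjusted p = 2.13e-05) and in S2-028 against S2-020 0.19 (edgeR adjusted p = 0.0219, up to 0.0852 with a library left out).

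SPRED1 (NCBI gene 161742, chromosome 15, 38252836 to 38357249) was at 46.6, 44.5 and 43.2 CPM in S2-007, 47.5, 45.6 and 47.4 in S2-020 and 53.3, 46.3 and 50.7 in S2-028. The ranges of the 3 lines overlapped in each comparison. Its log2 fold changes were 0.16, 0.03 and 0.10 in the order of comparisons above, and edgeR's test gave adjusted p of 0.103, 0.746 and 0.291. The widest of the 3 intervals, that of S2-028 against S2-007, ran from 0.01 to 0.32.

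Of the brakes on the receptor, ERRFI1 was at a different level in each line and LRIG1 was high in S2-020. ERRFI1 (NCBI gene 54206, chromosome 1, 8011727 to 8026309), also called MIG6, encodes a protein that binds the kinase domain of EGFR and blocks it. It was at 113, 118 and 131 CPM in S2-007, 173, 177 and 161 in S2-020 and 243, 214 and 245 in S2-028. The lines did not overlap, with S2-007 lowest and S2-028 highest. The 1.95-fold difference between S2-028 and S2-007 was called (log2 fold change 0.96, standard error 0.0679, edgeR adjusted p = 2.34e-10). The steps from S2-007 to S2-020 and from S2-020 to S2-028 were 0.47 and 0.46 on the log2 scale, with edgeR adjusted p = 1.35e-06 and edgeR adjusted p = 2.89e-06, and each was under the fold threshold.

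LRIG1 (NCBI gene 26018, chromosome 3, 66378797 to 66501121), a membrane protein that promotes the breakdown of EGFR and its relatives, had the widest range of the 10 genes. It was at 1.07, 1.36 and 1.29 CPM in S2-007, 27.96, 32.6 and 32.4 in S2-020 and 2.40, 3.10 and 3.33 in S2-028. The lines did not overlap, and S2-020 was far above the others. The difference between S2-020 and S2-007 was 24.5-fold (log2 fold change 4.61, standard error 0.121, edgeR adjusted p = 9.01e-17), with a range of 4.53 to 4.70 over the fits that left out 1 library each. S2-028 was 10.5-fold below S2-020 (log2 fold change -3.39, standard error 0.125, edgeR adjusted p = 3.29e-14). It was 2.38-fold above S2-007 (log2 fold change 1.25, standard error 0.232, edgeR adjusted p = 1.79e-04), which rested on 80 to 203 reads per library and had a 95% interval from 0.77 to 1.74.

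The gene SLC25A26 lies on the other strand and covers 37.9% of the exon bases of LRIG1, so part of the reads could be assigned to either gene if strand was not used. SLC25A26 was at 10.9 ± 0.697 CPM (SD, n = 3) in S2-007, 12.1 ± 2.02 in S2-020 and 13.7 ± 0.365 in S2-028. Its log2 fold change in S2-020 against S2-007 was 0.12 (edgeR adjusted p = 0.472), where that of LRIG1 was 4.61. In S2-028 against S2-007 it was 0.33 (edgeR adjusted p = 0.0194), where that of LRIG1 was 1.25.

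PHLDA1 (NCBI gene 22822, chromosome 12, 76025447 to 76031776) encodes a pleckstrin-homology-like protein induced by ERK, used as a readout of the pathway. It was at 294, 317 and 326 CPM in S2-007, 322, 299.8 and 326 in S2-020 and 646, 672 and 639 in S2-028. S2-007 and S2-020 overlapped, and every S2-028 library was well above both. The gene was 2.10-fold higher in S2-028 than in S2-007 (log2 fold change 1.07, standard error 0.0558, edgeR adjusted p = 1.79e-12) and 2.07-fold higher than in S2-020 (log2 fold change 1.05, standard error 0.0489, edgeR adjusted p = 1.23e-12). S2-020 and S2-007 differed by -0.01, with a 95% interval from -0.12 to 0.10, and the sign of this difference turned with the scaling. An antisense gene covers 9.35% of the exon bases of PHLDA1.

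To set the genes against each other, the level was divided by the length of the canonical transcript in GENCODE v44. In S2-007, PHLDA1 was the most abundant at 52.8 ± 2.82 CPM per kb (SD, n = 3), followed by ERRFI1 at 38.9 ± 2.97 and DUSP4 at 30.8 ± 2.56. In S2-028, PHLDA1 reached 110.4 ± 2.93 CPM per kb and ERRFI1 75.5 ± 5.57. In S2-020 the means of both, 53.5 ± 2.42 and 55.03 ± 2.80 CPM per kb, were closer than their SDs. DUSP4 was in the 3rd place in all 3 lines, DUSP6 in the 7th and SPRED1 in the 9th. LRIG1 was the least abundant in every line, at 0.231 CPM per kb in S2-007, 5.78 in S2-020 and 0.549 in S2-028. SPRY2 moved from the 8th place in S2-007 and S2-028 to the 5th in S2-020, and DUSP5 from the 5th in S2-007 to the 8th in S2-020.

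**Figure D3:**
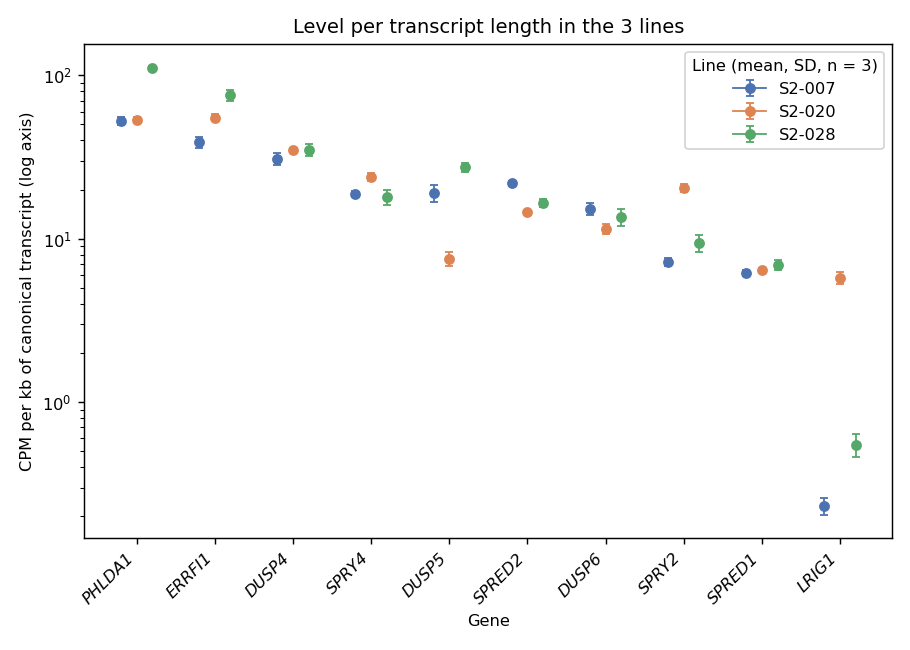
The mean level of each gene in CPM per kb of canonical transcript (log axis) with the SD of 3 libraries is plotted for each line, ordered by the mean over lines. PHLDA1 and ERRFI1 are at the top in every line and LRIG1 at the bottom, where the S2-020 mean of 5.78 stands apart from 0.231 in S2-007.

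As a view of the chromosome region around each gene, the 50 tested genes nearest to it were described as well. For LRIG1 in S2-020 against S2-007, the median log2 fold change of the neighbours was 0.11, where LRIG1 itself had 4.61. For SPRY2 the neighbours were at -0.07 beside 1.47 for the gene, with 3 called higher and 3 lower. In S2-028 against S2-020, where SPRY2 was at -1.12, its neighbours had a median of -0.04, but 17 of the 50 were called lower and 3 higher, and against S2-007 15 were called lower in S2-028 and 3 higher, with SPRY2 itself at 0.38. DUSP5, at -1.37, had neighbours with a median of -0.39, of which 13 were called lower and none was called higher. In S2-028 against S2-020, DUSP5 was at 1.87 and its neighbours at 0.28, with 10 called higher and 2 lower, and LRIG1 was at -3.39 and its neighbours at 0.20, with 7 higher and 3 lower. Between S2-028 and S2-007 the neighbours of PHLDA1 were at 0.01, beside 1.07 for the gene, and those of ERRFI1 at -0.03, beside 0.96. LRIG1, at 1.25, had neighbours at 0.33, with 12 of the 50 called higher and none lower. SPRED2 in S2-020 against S2-007, at -0.62, had neighbours at -0.22. The part of the region in these differences was not tested, and copy number was not measured in these files.

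**Figure D4:**
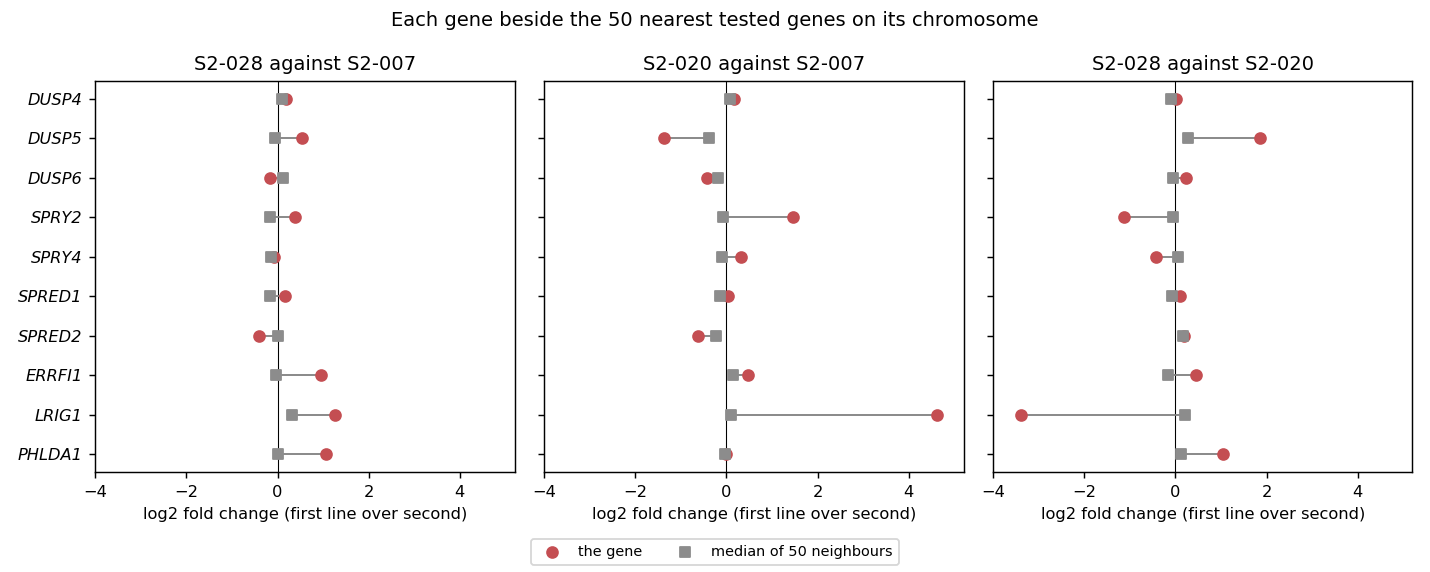
For each comparison, the log2 fold change of each of the 10 genes (red circle) is plotted beside the median of the 50 nearest tested genes on its chromosome (grey square). The medians of the neighbours lie between -0.39 and 0.33, and the longest distance is that of LRIG1 in S2-020 against S2-007.

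EGFR, the receptor at the head of the cascade, was at 784 ± 11.8 CPM (SD, n = 3) in S2-007, 387 ± 18.0 in S2-020 and 2146 ± 104 in S2-028. Between S2-020 and S2-028, EGFR was 5.54-fold higher in S2-028 (log2 fold change 2.47, standard error 0.0501, edgeR adjusted p = 5.68e-18). In that same comparison DUSP5 and PHLDA1 were higher in S2-028 at 1.87 and 1.05, and SPRY2 and LRIG1 were lower at -1.12 and -3.39. ERRFI1 was higher at 0.46 and SPRY4 lower at -0.42, both under the fold threshold, and DUSP4 was at 0.002. In S2-020 against S2-007, EGFR was lower (log2 fold change -1.05, standard error 0.0483, edgeR adjusted p = 5.50e-13), as were DUSP5 and SPRED2, while SPRY2 and LRIG1 were higher. In S2-028 against S2-007, EGFR was higher (log2 fold change 1.46, standard error 0.0536, edgeR adjusted p = 5.24e-15). ERRFI1, LRIG1 and PHLDA1 were called higher there too, at 0.96, 1.25 and 1.07, and none of the 10 genes was called lower.

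The cascade from ligand to ERK was taken as a list of 28 genes, all of which passed the filter. Between S2-028 and S2-007, 11 were called higher and 1 lower in S2-028, where 10.2% and 8.19% of all genes were, with a list median of 0.16 beside 0.002 over all genes. In S2-020 against S2-007, 2 were called higher and 6 lower, where 9.57% and 12.1% of all genes were (median 0.02, all genes -0.05). In S2-028 against S2-020, 11 were called higher and 1 lower, where 12.1% and 10.1% of all genes were (median 0.10, all genes 0.02). The ligand gene AREG was at 58.1 CPM in S2-007, 24.8 in S2-020 and 214 in S2-028, and TGFA at 267, 50.8 and 263. ERBB3, a partner receptor of EGFR, was at 64.5 CPM in S2-007, 5.96 in S2-020 and 105 in S2-028, and its log2 fold change in S2-028 against S2-020 was 4.15 (standard error 0.0867, edgeR adjusted p = 8.33e-18). ERBB2 was called lower in S2-020 than in S2-007, at -1.18. The ligand genes EREG and BTC were called higher in S2-028 than in S2-007 at 1.52 and 2.79.

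Other members of the same gene families were taken as a list of 14 genes, of which 13 passed the filter. In S2-028 against S2-007, 4 were called higher and 3 lower, in S2-020 against S2-007 6 higher and 4 lower, and in S2-028 against S2-020 3 higher and 4 lower. Over all genes, 18.4%, 21.6% and 22.2% were called in either direction. The list medians were -0.04, 0.51 and 0.02, beside 0.002, -0.05 and 0.02 over all genes. Without replicate 1 of S2-007, or without replicate 1 of S2-020, 2 rather than 4 were called lower in S2-020 than in S2-007. SPRY1, a relative of SPRY2 and SPRY4, was at 10.4, 11.4 and 10.4 CPM in S2-007, 36.2, 35.2 and 33.6 in S2-020 and 58.3, 63.4 and 62.0 in S2-028. It was called in all 3 comparisons and was highest in S2-028, whereas SPRY2 and SPRY4 were highest in S2-020. LRIG3, at 8.36 CPM in S2-007, 21.7 in S2-020 and 18.7 in S2-028, was called higher in both other lines than in S2-007 (1.35 in S2-020 and 1.17 in S2-028). PHLDA2 went the other way, with 86.8 CPM in S2-007, 47.8 in S2-020 and 50.1 in S2-028, and its log2 fold changes against S2-007 were -0.89 and -0.79. DUSP7, a cytoplasmic ERK phosphatase like DUSP6, was called higher in S2-020 than in S2-007 (0.79) and lower in S2-028 than in S2-020 (-1.14). DUSP9 and DUSP16 were also called lower in S2-028 than in S2-020, at -2.13 and -0.76. Both were called higher in S2-020 than in S2-007, at 2.10 and 0.69. In S2-028 against S2-007 they were at -0.002 and -0.04 and not called. DUSP9 was low, at 0.655 CPM in S2-007, 2.87 in S2-020 and 0.652 in S2-028. DUSP1 was called higher in S2-028 than in S2-007, at 0.87.

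Other early and delayed targets of ERK formed a list of 20 genes. For S2-028 against S2-007 all 20 were tested, 5 were called higher and 3 lower, where 10.2% and 8.19% of all genes were, and the list median was 0.19 beside 0.002 over all genes. Without replicate 1 of S2-028, 3 rather than 5 were called higher there. In S2-020 against S2-007, 19 were tested, 2 were called higher and 6 lower, where 9.57% and 12.1% of all genes were, with a median of -0.27 beside -0.05. In S2-028 against S2-020, 9 were called higher and 2 lower, where 12.1% and 10.1% of all genes were, with a median of 0.40 beside 0.02. FOSL1, an AP-1 subunit, was at 796 ± 86.4 CPM in S2-007, 407 ± 6.73 in S2-020 and 886 ± 98.3 in S2-028, so it was lowest in S2-020, like DUSP5. CCND1, the gene of cyclin D1, was at 574 ± 39.0, 1053 ± 19.0 and 511 ± 74.5 CPM, highest in S2-020 like SPRY2. Both were called in S2-020 against S2-007, FOSL1 at -0.996 (edgeR adjusted p = 2.22e-11) and CCND1 at 0.84 (edgeR adjusted p = 1.45e-11), and both lay under the threshold in S2-028 against S2-007, at 0.16 and -0.16. EPHA2 and IER2 were called lower in S2-028 than in S2-007, at -0.81 and -0.78, and IER3 and TRIB1 higher, at 0.81 and 0.76. TRIB1 was called higher in S2-020 as well, at 1.117, and JUNB lower, at -1.18. EPHA4 was called higher in S2-028 than in S2-020, at 0.73. EGR1, an early gene that was chosen after its values were seen, was at 23.8, 47.3 and 16.4 CPM in the S2-007 libraries and between 6.14 and 9.59 CPM in the 6 others.

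Further brakes on the receptor and on RAS formed a list of 16 genes. In S2-028 against S2-007, 8 were called higher and 2 lower (median 0.55), in S2-020 against S2-007 4 higher and 3 lower (median 0.16), and in S2-028 against S2-020 5 higher and 3 lower (median -0.06). Over all genes, 18.4%, 21.6% and 22.2% were called in either direction and the medians were 0.002, -0.05 and 0.02. Without replicate 3 of S2-028, 1 rather than 2 was called lower in S2-028 than in S2-007. RASA1, which encodes a protein that inactivates RAS, was at 40.6 ± 4.59 CPM in S2-007, 39.3 ± 0.264 in S2-020 and 171 ± 12.1 in S2-028. Its log2 fold change was 2.08 in S2-028 against S2-007 (standard error 0.0766, edgeR adjusted p = 5.31e-15). SH3KBP1, an adaptor in the uptake of EGFR from the membrane, was called higher in S2-028 than in S2-007 (1.52) and in S2-020 (2.09). SOCS5 was highest in S2-020, at 62.9 ± 0.646 CPM against 22.2 ± 2.88 in S2-007 and 30.6 ± 2.19 in S2-028, the same order as SPRY2. IL17RD, also called SEF, was at 8.57 CPM in S2-007, 22.2 in S2-020 and 20.3 in S2-028. SOCS3 and RNF41 were called higher in S2-020 than in S2-007, at 1.48 and 0.70, and also in S2-028 than in S2-007, at 1.21 and 0.75. RASAL2 was called lower in S2-028 than in S2-007, at -1.06, and than in S2-020, at -0.63. LZTR1 was called higher in S2-028 than in S2-020, at 1.122, and than in S2-007, at 0.92. CBLC, a ubiquitin ligase gene of the CBL family, was at 2.67 CPM in S2-007 and 12.9 in S2-028, and in S2-020 it had reads in 1 library only, at 0.144 CPM.

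**Figure D5:**
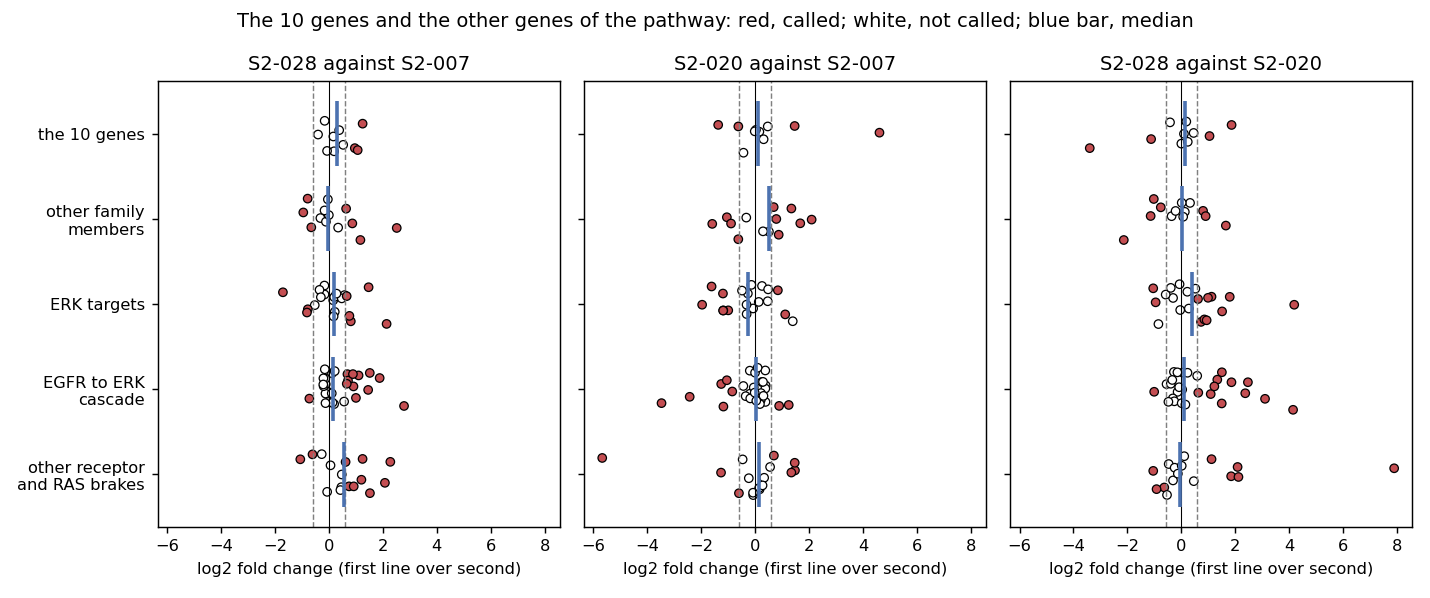
The log2 fold changes (horizontal axis, first line over second) of the 10 genes and of the 4 other lists are plotted for each comparison, with called genes in red, others in white, the median as a blue bar and 1.5-fold as dashed lines. Called genes of every list except the 10 genes in S2-028 against S2-007 lie on both sides of 0.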

How the data were processed

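Strand-specific libraries of poly(A)-selected RNA from 9 samples were sequenced. Per the methods and the submitters' processing notes, Trimmomatic 0.39 was used for quality filtering and BWA 0.7.17, which is not a spliced aligner, for alignment to GRCh38.p14. The authors deposited raw read counts per gene. The counting tool and its use of strand are not given in the sources used here. The deposited table also holds 18 columns of signal that the authors normalized from the counts, to library totals or by TMM, which were not used, and 2 lines that name no gene (the column totals and their ratios), which hold no reads of their own and were left out.

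The main test was run with edgeR 4.0.16 under R 4.3.3. For each pair of lines, the 6 libraries were filtered with filterByExpr (minimum count 10, minimum total 15), normalized by TMM and tested with glmQLFit and glmQLFTest, with Benjamini-Hochberg adjustment over all genes. The standard error was computed from the log2 fold change and the F statistic, and 95% intervals from the degrees of freedom of the fit. CPM use TMM factors over all 9 libraries. Intervals cover the spread between libraries only. Gene positions are from RefSeq, overlaps and transcript lengths from GENCODE v44. The procedure was also run on simulated data. The changes planted there were all larger than 1.5-fold, so that run does not bear on genes near the threshold.

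The 10 genes and the other lists were chosen with earlier results of these data known. Genes named outside the 10 were EGFR, at most 4 called genes of each list and comparison with the smallest adjusted p, SERPINB5, at most 4 markers, and genes added after their values were seen (SLC25A26, EGR1 and the further markers). The alternatives were other normalizations, filters and tests, a fit of all 9 libraries, a replicate block, DESeq2 1.42.0 and leaving out each library.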

Additional observations from a re-analysis of the deposited data

How the results depend on the processing

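Over 30 fold changes (10 genes in 3 comparisons) and 15 alternatives each, 432 of 450 values kept their direction and their call, which takes the adjusted p and the fold together, and 24 of the 30 fold changes did so under every alternative. The adjusted p taken alone, whatever the fold, crossed 0.05 in 23 of 420 values, leaving the test against 1.5-fold aside. These came from 7 fold changes, all under 1.5-fold: DUSP4 in both comparisons with S2-007, DUSP6 and SPRED1 in both comparisons with S2-028, and SPRED2 in S2-028 against S2-020. With the test against a 1.5-fold change, 2977 rather than 4858 genes were called in S2-028 against S2-007, 3639 rather than 5769 in S2-020 against S2-007 and 3638 rather than 5788 in S2-028 against S2-020, and 1 of the 10 genes (DUSP5) rather than 2 was called lower in S2-020 than in S2-007, as SPRED2 was lost. This test asks for more than the fold threshold by construction. With it, the other family members called higher and lower in S2-028 against S2-007 were 2 and 1 rather than 4 and 3, and those called lower in S2-020 were 2 rather than 4. Called higher in S2-028 were 6 rather than 11 cascade genes (against S2-007) and 5 rather than 9 ERK targets (against S2-020), and 1 rather than 2 further brakes was called lower in S2-028 than in S2-007. Leaving out 1 library at a time, between 1 and 2 of the 10 genes were called lower in S2-020 than in S2-007, with 1 called without replicate 3 of S2-007. The reversed signs were all in genes that were not called. DUSP4 in S2-028 against S2-020 was -0.0025 with DESeq2 size factors, -0.0042 with DESeq2, -0.0070 without a filter, -0.0011 with the replicate block, and between -0.057 and 0.065 with a library left out. PHLDA1 in S2-020 against S2-007 was 0.017 with DESeq2 size factors, 0.018 with DESeq2, 0.018 with all 9 libraries in one fit, and between -0.040 and 0.040 with a library left out. SPRED1 in the same comparison was -0.022 with total counts only, and SPRY4 in S2-028 against S2-007 lay between -0.13 and 0.011 with a library left out. The cause was not tested.

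The labels do not say whether the replicate numbers pair libraries of different lines. Correlations of the deviations from the line means were between -0.0313 and 0.0694 for same-numbered libraries. For libraries with other numbers they were between -0.1195 and 0.0946. Each deviation is from a mean of only 3 libraries, so these values cannot show whether same-numbered libraries were handled together. With the replicate block, 3, 4 and 4 of the 10 genes were called in the 3 comparisons as without it, and 4866, 5650 and 5716 of all genes. Depth limits LRIG1 in S2-007 and S2-028, and no gene of the 10 was near the floor of 3 counts.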

Other observations

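Genes outside the lists whose pattern over the 9 libraries was most like that of a member were found by the root mean square difference of log2 CPM, each gene centred on its own mean, among the 10524 genes whose mean log2 CPM was 3 or more. For DUSP6 these were SDHAF2, TMED4 and ABRAXAS2, with differences of 0.0757, 0.0762 and 0.0770. For DUSP4 they were RBM27, ARL14EP and AARS2, between 0.0387 and 0.0422. For SPRY4 they were CSTF1, SETD1B and ORC6, between 0.0465 and 0.0600. All genes compared share the 9 libraries and their depth, and the values are given as a description with no test.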
